A study of Gallus gallus with 24 samples.

Results

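The comparison of goggled with open eyes after 3 d rests on 12 of the 24 arrays of the series: the goggled eyes of 6 chicks and their 6 open fellow eyes. The arrays were taken by their titles, and arrays of the same replicate number were treated as both eyes of 1 chick. All 24 arrays entered the model, so that the spread between eyes was estimated from both times. Of 38439 probe sets, the 26907 with a mean signal above the 30th percentile were tested. The animals were white Leghorn chicks kept on a 12-hour light and dark cycle. At about 1 week of age a translucent white plastic goggle was fixed over 1 eye under ether, on alternating sides, at the start of the light phase. Retina and pigment epithelium were dissected as 1 tissue from both eyes after 6 h or 3 d of wear. All open eyes are thus fellow eyes of goggled chicks, and sex is not labelled. The protocol names 8 chicks per time and the array description 6.

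A diffusing goggle removes form vision while light still reaches the retina, and the eye behind it grows too long, which is form-deprivation myopia. The signal for this growth arises within the eye itself. Amacrine cells, the interneurons that release dopamine and a range of peptides, are the retinal cells most often linked to it, and signals pass from them through the pigment epithelium to the choroid and sclera. In the chick, BMP2 of the pigment epithelium is known to respond to the sign of defocus.

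Retinal and pigment epithelial markers, apart from the melanin gene PMEL, were bright on all 12 arrays. Their lowest signals were 1021 for GNAT2 of cones, 3681 for PAX6 of amacrine and ganglion cells, 3033 for GLUL of Mueller glia and 2211 for RPE65 of the pigment epithelium. The melanin genes TYRP1 and PMEL had lowest signals of 470.7 and 38.9. Against these, the 95th percentile of 57 reporter probe sets that match no chicken gene was 22.8. Goggled arrays had a median signal of 32.5 ± 2.24 (SD, n = 6) and open arrays one of 35.6 ± 2.68. The actin 3'/5' ratio, a measure of RNA integrity, was 3.85 ± 0.614 in goggled and 3.69 ± 0.224 in open eyes. Goggled eye 4 stood apart at 5.05, with the remaining goggled eyes at 3.44 to 3.92. Its median signal, 30.1, was also the lowest of the 12 arrays. The part of RNA quality in the differences of chick 4 was not tested.

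Goggled eye 3 and open eye 2 stood apart, because they carried far more RNA of genes typical of choroid, sclera and vessels. The mean log2 signal over 28 such genes was 7.93 in goggled eye 3 and 7.47 in open eye 2, while the remaining goggled eyes lay at 6.00 to 6.18 and the remaining open eyes at 6.01 to 6.64. COL3A1, a fibrillar collagen, had a signal of 1566 in goggled eye 3 and 835.4 in open eye 2, and of 36.4 to 68.0 in the remaining goggled eyes. The same gene reached 421.7 in open eye 1. The pairing of chicks 2 and 3 is also the least sure: goggled eye 3 correlated at 0.291 with open eye 2 and at 0.102 with open eye 3, and open eye 2 at 0.199 with goggled eye 2. These are correlations of deviations, taken after each probe set's mean over the 6 open or the 6 goggled eyes was subtracted. The correlations include the stromal genes, in which goggled eye 3 and open eye 2 are both high. The part of these genes in the 0.291 was not tested. Within chick 3 as numbered, 27 of the 28 genes were higher in the goggled eye, and within chick 2, 25 of 28 were lower, so the 2 chicks pulled these genes in opposite directions. The eyes at 6 h also spread widely on this measure, from 6.12 to 7.34. Goggled eye 3 was also highest of the goggled eyes in the mean of 18 blood and immune genes (7.40, the others at most 6.398) and of 23 pigment epithelium and melanin genes (8.73, others at most 8.40). In bulk tissue more cells of a type and more RNA per cell cannot be told apart.

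**Figure D1:**
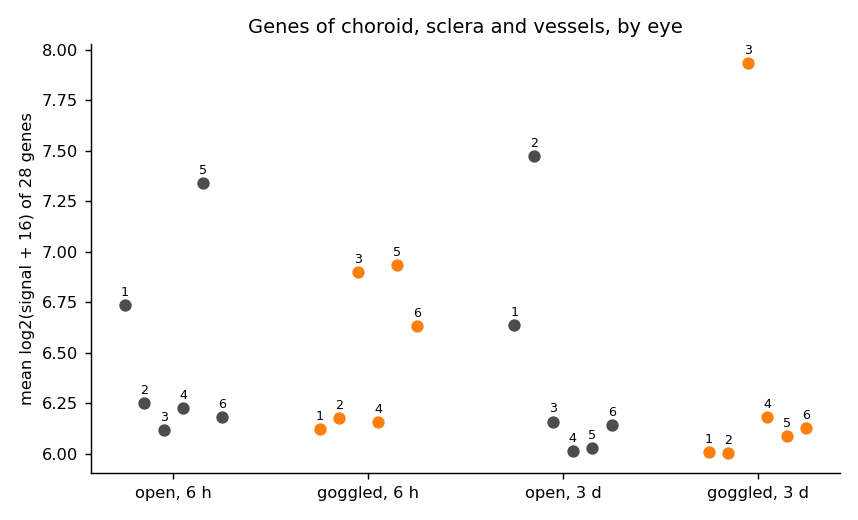
Mean log2(signal + 16) of 28 genes of choroid, sclera and vessels, 1 point per eye, numbered by chick within each time, with open eyes in grey and goggled eyes in orange. Goggled eye 3 at 3 d (7.93) and open eye 2 at 3 d (7.47) lie above all other eyes of that time, and open eye 5 at 6 h reaches 7.34.

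After 3 d the goggled eyes had less RNA of 2 peptide genes, VIP and UTS2B, and of 26907 probe sets these alone reached a limma adjusted p under 0.05, with none higher. The share called was 0.00743% lower and 0.0% higher. VIP encodes vasoactive intestinal peptide, a transmitter of a class of amacrine cells. Its signal was 361.0 in the lowest, 462.6 in the median and 539.3 in the highest open eye, and 186.6, 239.3 and 266.1 in goggled eyes. The groups did not overlap, and goggled eye 3, rich in stromal RNA, was the highest goggled eye and still below every open eye. On the log2 scale VIP fell by 0.95 (limma adjusted p = 0.00171, SE 0.09, 6 of 6 chicks).

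UTS2B encodes a relative of urotensin 2, a peptide that acts on blood vessels. Its signal was 90.1, 122.5 and 149.5 in the lowest, median and highest open eye and 51.9, 64.8 and 68.5 in goggled eyes, again without overlap. It fell by 0.79 on the log2 scale (SE 0.10, 6 of 6 chicks, limma adjusted p = 0.0222). With both eyes of chicks 2 and 3 left out, no probe set passed: the difference of VIP was -0.96 (limma adjusted p = 0.0689) and that of UTS2B -0.82 (0.097), each lower in 4 of 4 chicks, as were 10.5% of all probe sets (6.34% were higher in all 4). Both differences kept nearly their size there, while neither gene was called. The part of the smaller number of chicks in this was not tested. With the stromal mean as a covariate both genes stayed past the threshold, at limma adjusted p values of 0.000744 and 0.028. The call of UTS2B was also lost on the 12 arrays alone (0.288), after quantile normalization (0.174) and after median centring of the arrays (0.117). It was lost as well without any 1 chick other than chick 2 (limma adjusted p = 0.0515 without chick 1, 0.0844 without 3, 0.158 without 4, 0.0982 without 5 and 0.167 without 6).

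**Figure D2:**
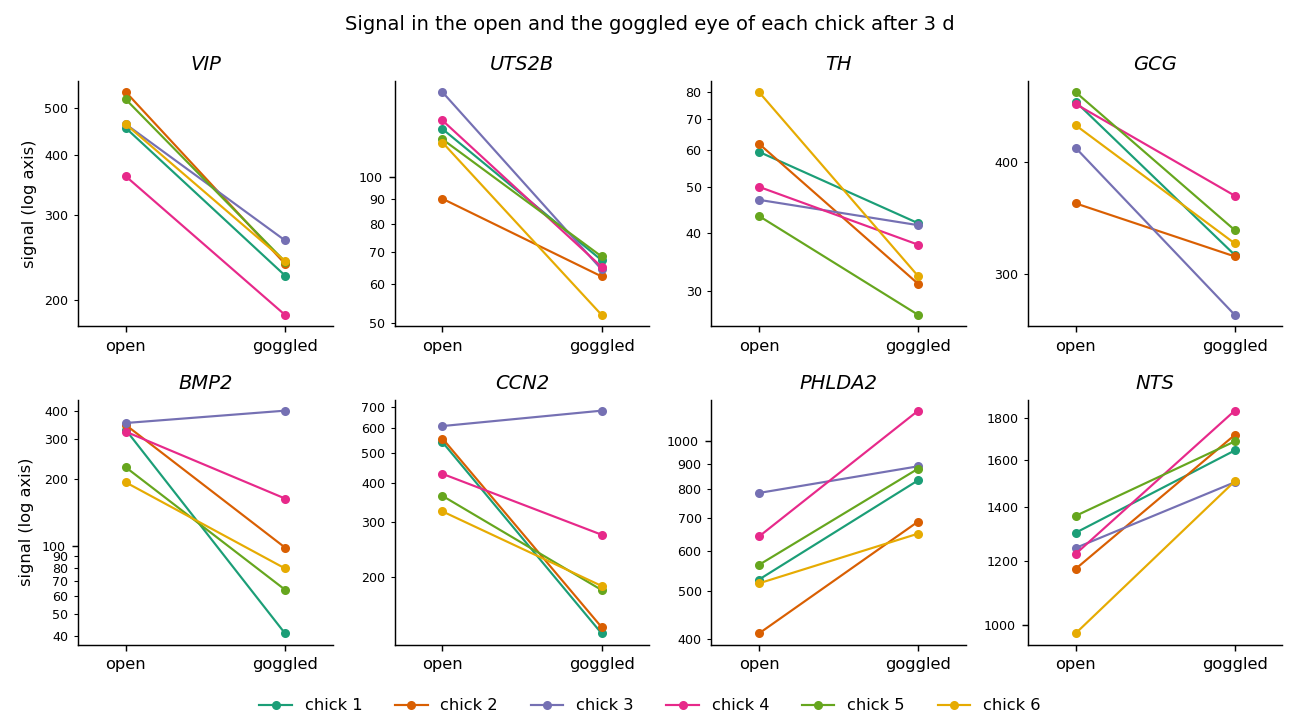
Signal (log axis) of 8 genes in the open and goggled eye of each of 6 chicks after 3 d, with a line joining both eyes of a chick. VIP, UTS2B and TH separate the groups downward and NTS upward, GCG and PHLDA2 move 1 way in all 6 chicks with overlap of the groups, and in BMP2 and CCN2 chick 3 runs against the other 5.

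**Figure D3:**
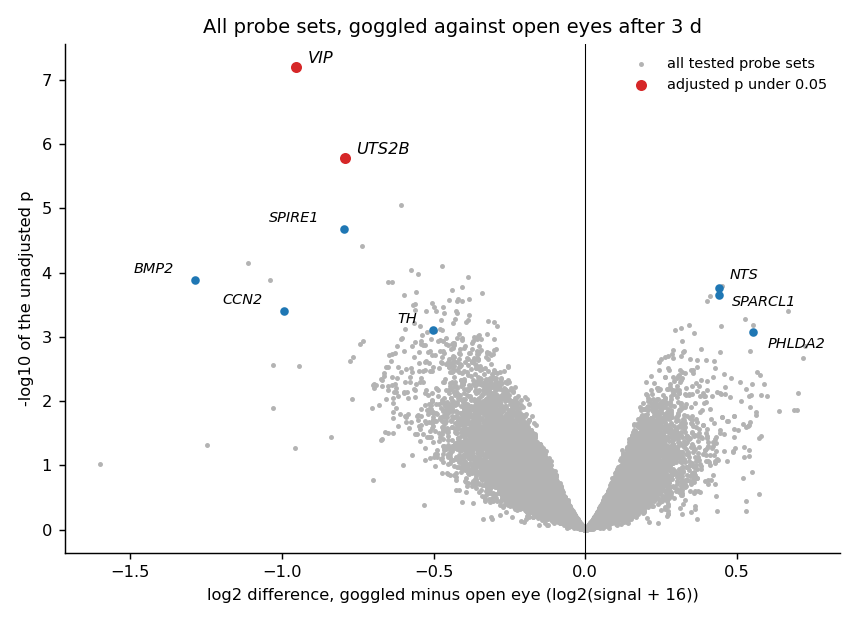
Log2 difference (goggled minus open) against -log10 of the unadjusted p for all 26907 tested probe sets after 3 d. VIP and UTS2B, in red, are the 2 called at an adjusted p under 0.05, and 7 other genes that the text describes are in blue.

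BMP2 and CCN2 had larger differences than VIP and UTS2B and a wider spread, did not pass the test, and in both of them chick 3 stood against the rest. BMP2 encodes a bone morphogenetic protein, and CCN2 a matrix-associated protein also called connective tissue growth factor. BMP2 had signals of 192.2, 326.0 and 353.5 in the lowest, median and highest open eye. In goggled eyes it was 401.1 in chick 3, and in the other 5 chicks it ranged from 40.9 in chick 1 to 163.0 in chick 4. All goggled eyes but that of chick 3 were thus below every open eye. The BMP2 difference was -1.29 (SE 0.25, limma adjusted p = 0.246, 5 of 6 chicks lower), and without chick 3 it was -1.58 and passed (limma adjusted p = 0.0315). Without chicks 2 and 3 it was -1.56 (0.097).

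CCN2 had signals of 323.7, 483.9 and 608.9 in the lowest, median and highest open eye. In goggled eyes it was 131.3 to 272.5 in 5 chicks and 682.3 in chick 3. In both genes goggled eye 3 was above every open eye and goggled eye 1 was the lowest. The difference was -0.99 (SE 0.22, limma adjusted p = 0.263, 5 of 6 chicks lower) and -1.06 without chicks 2 and 3 (0.239). Goggled eye 3 is the eye with the most stromal, blood and pigment epithelial RNA. With the stromal mean as a covariate the differences were -1.28 for BMP2 (limma adjusted p = 0.146) and -0.98 for CCN2 (0.0849). Apart from this fit, the part of such RNA in the BMP2 and CCN2 signals of that eye was not tested.

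In the whole list of BMP and transforming growth factor genes, 2 were lower and 1 was higher in all 6 chicks, against 2.79% and 2.54% of all genes. A limma unadjusted p under 0.05 was reached by 6 lower genes, BMP2 and CCN2 among them, and 1 higher gene. Over all genes these shares were 4.96% and 2.99%. Among 39 tested genes 23 had lower and 16 higher values (median -0.03, against -0.0037 and 51.2% lower over all 11117 genes). The median was 0.016 after quantile normalization and 0.021 after median centring, where that of all genes was 0.013 and 0.051. BMPR2, a receptor that binds BMPs, was 84.0 ± 18.4 (SD, n = 6) behind the goggle and 114.8 ± 26.1 in open eyes, lower in 6 of 6 chicks (unadjusted p = 0.0109, not past the test over all genes). SMAD9, which carries the BMP signal to the nucleus, gave -0.29 and was lower in 5 of 6. ID4, a target of BMP signalling, gave 0.24 and was higher in 6 of 6. TGFB2, a growth factor much studied in the myopic sclera, gave 0.01, with 3 chicks each way.

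Of 23 amacrine genes tested, 14 were lower and 9 higher (median -0.02, against 51.2% lower over all genes), and after median centring 9 were lower and 14 higher (median 0.03). That centring moved all genes too, to 3934 of 11117 lower and a median of 0.051. VIP was the only call among the amacrine genes. TH, which limits dopamine synthesis, had signals of 43.4, 54.8 and 79.8 in the lowest, median and highest open eye and 26.7, 35.0 and 41.9 in goggled eyes. The groups did not overlap, which was so for 58 lower (0.216%) and 16 higher (0.0595%) of all tested probe sets. The TH difference was -0.50 (SE 0.12, 6 of 6 chicks, limma adjusted p = 0.329) and -0.54 without chicks 2 and 3. DDC, the next enzyme of dopamine synthesis, gave -0.29 with the brightest of its 3 probe sets, lower in 5 of 6, and 0.03 and -0.19 with the others. GCH1, which makes the cofactor of TH, gave -0.27 and was lower in 4 of 6. Of 14 dopamine genes tested, 10 had lower values (median -0.045). The median was 0.007 under quantile normalization and 0.010 under median centring, against 0.013 and 0.051 over all genes.

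GCG encodes proglucagon, and glucagon amacrine cells of the chick are known to respond to the sign of defocus. Its brighter probe set gave 359.5, 451.0 and 477.4 in the lowest, median and highest open eye and 270.5, 319.9 and 366.6 in goggled eyes. Only the highest goggled eye reached into the range of the open eyes. Both GCG probe sets were lower (-0.42 and -0.38, limma adjusted p = 0.339 and 0.246).

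GAD2, an enzyme of GABA synthesis, had signals of 1190, 1281 and 1402 in the lowest, median and highest open eye and 928.6, 1077 and 1120 in goggled eyes. The groups did not overlap. The difference was -0.29 (SE 0.07, 6 of 6 chicks, limma adjusted p = 0.317), and the second GAD2 probe set gave -0.24.

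Genes of GABA and glycine transmission had lower values in 19 of 24 cases, with a median of -0.14, against 51.2% lower and a median of -0.0037 over all genes. All 6 chicks had a median below 0 for this list. The counts of lower genes were 19 after quantile normalization and 16 after median centring, against 5030 and 3934 of all 11117 genes. An unadjusted p under 0.05 was reached by 3 lower genes and 1 higher gene, against 4.96% lower and 2.99% higher of all genes. GLRA1, a glycine receptor subunit, was 35.1 ± 19.3 (SD, n = 6) behind the goggle and 52.0 ± 11.9 in open eyes, lower in 5 of 6 chicks. GABRD, a subunit of the GABA-A receptor, gave -0.36 in 5 of 6 chicks with 1 probe set and -0.02 with its other. The member with higher values at an unadjusted p under 0.05 was GABBR2, a subunit of the GABA-B receptor, at 0.26, and its 4 other probe sets gave -0.07 to -0.10.

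Among neuropeptide genes the values went both ways. Of 19 tested, 12 were lower and 7 higher (median -0.08), against 51.2% lower over all genes. Among the lower, 2, VIP and UTS2B, were the calls. The list thus holds both calls, and it was assembled with them known. NTS encodes neurotensin, a peptide of another class of amacrine cells. Its signals were 976.4, 1234 and 1364 in the lowest, median and highest open eye and 1501, 1665 and 1840 in goggled eyes. Every goggled eye was above every open eye. The difference was 0.44 (SE 0.09, higher in 6 of 6 chicks, limma adjusted p = 0.246) and 0.46 without chicks 2 and 3. PENK, which encodes the enkephalin precursor, was the brightest of the peptide genes named here and gave 0.13, higher in 5 of 6. NPY, neuropeptide Y, gave 0.01, with 3 chicks each way.

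Genes that respond to activity or growth signals were mixed. BDNF, a neurotrophin, had signals of 72.3, 74.4 and 102.8 in the lowest, median and highest open eye and 44.3, 57.3 and 76.7 in goggled eyes. The groups overlapped only through goggled eye 3. The difference was -0.38 (SE 0.08, limma adjusted p = 0.246, 6 of 6 chicks lower). DUSP4, a phosphatase that turns off MAP kinases, gave -0.57 and -0.65 with its 2 probe sets (limma adjusted p = 0.263 and 0.246). EGR1, an immediate early gene of glucagon amacrine cells, gave -0.22 and was lower in 5 of 6 chicks. Of 20 immediate early and activity genes, 10 were lower and 10 higher.

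Among genes with higher values, CCDC28B, a protein linked to cilia, gave 0.60 in 6 of 6 chicks, at open signals of 2.4 to 25.2, near the background. COPS9, a subunit of the COP9 signalosome, was 2254 ± 462 (SD, n = 6) behind the goggle and 1549 ± 579 in open eyes, higher in 5 of 6 chicks (0.59, limma adjusted p = 0.401). It gave 0.65 at 6 h, and its second, dimmer probe set gave -0.03 at 3 d. PHLDA2, a small pleckstrin homology domain protein, had signals of 409.9, 544.8 and 786.0 in the lowest, median and highest open eye and 650.9, 856.6 and 1151 in goggled eyes. The groups overlapped, but each chick was higher in its goggled eye with both probe sets (0.55 and 0.31, limma adjusted p = 0.338 and 0.458). SPARCL1 encodes a secreted matrix protein of glia and vessels. It was 743.9 ± 131 (SD, n = 6) behind the goggle and 546.6 ± 118 in open eyes, higher in 6 of 6 chicks (0.44, limma adjusted p = 0.246). TRPC6, a cation channel, gave 0.45 and -0.06 with its 2 probe sets. TMEM26, a membrane protein, gave 0.54 with a limma adjusted p of 0.345. Of all tested probe sets, 473 (1.76%) were higher and 871 (3.24%) lower in all 6 chicks.

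Some other large differences were borne by 1 probe set of a gene and not by the rest. YBX1, a nucleic acid binding protein, gave -1.04 with a probe set whose goggled signals reached down to 2.3. The brightest YBX1 probe set gave 0.02. SPIRE1, an actin nucleator, gave -0.79 (SE 0.13, limma adjusted p = 0.115, 6 of 6 chicks lower), and its 3 other probe sets gave -0.06, 0.07 and -0.23. SARDH, a mitochondrial enzyme of sarcosine breakdown, appeared with both signs, at -0.65 and 0.51, each in 6 of 6 chicks. Its brightest probe set gave -0.31, lower in 5 of 6, and the remaining one -0.003. RPL38, a ribosomal protein, gave -0.73 with a probe set at 99.0 in open eyes, and -0.10 with the one at 9470. PPP1R3B, a regulatory subunit of a glycogen-bound phosphatase, gave -0.67 and 0.01. In PKD2 both probe sets were lower, at -0.74 and -0.22, as in CBFA2T3, near the background, at -0.66 and -0.25. VSTM2L, at -0.67, had only 1 tested probe set.

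In 149 genes with several probe sets, the one with the smallest p had an unadjusted p under 0.01 and a mean signal under 50, and the other probe sets shared its direction in 62.7% of cases. The share was 65.4% in 138 genes at signals of 50 to 300 and 67.1% in 33 genes above 300. Most of the dimmer genes were lower, 129 of 149 and 106 of 138. Of the other probe sets of these lower genes, 65.6% and 67.1% were lower too. Among all tested probe sets 58.5% were lower, and 67.5% of those at signals of 22.8 to 50. These shares are therefore not read as agreement between the probe sets of a gene. The median size of the difference was 0.42, 0.34 and 0.29 in the first probe set and 0.10, 0.11 and 0.10 in the others. The first is high because it was chosen by its p.

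The balance of lower and higher values across all genes changed with brightness and with scaling. Of the probe sets with an unadjusted p under 0.05, 1748 (6.5%) were lower and 647 (2.4%) higher, so 73.0% were lower. After quantile normalization 47.6% were lower and after median centring of each array 38.7%. The median difference was -0.08 for signals of 22.8 to 50, -0.06 for 50 to 100, -0.02 for 100 to 300 and 0.02 above 300. Of the 1748 lower probe sets, 364 had a mean signal under 22.8 and 628 one of 22.8 to 50. No statement that more genes were lower than higher in goggled eyes can be made without naming the scaling.

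**Figure D4:**
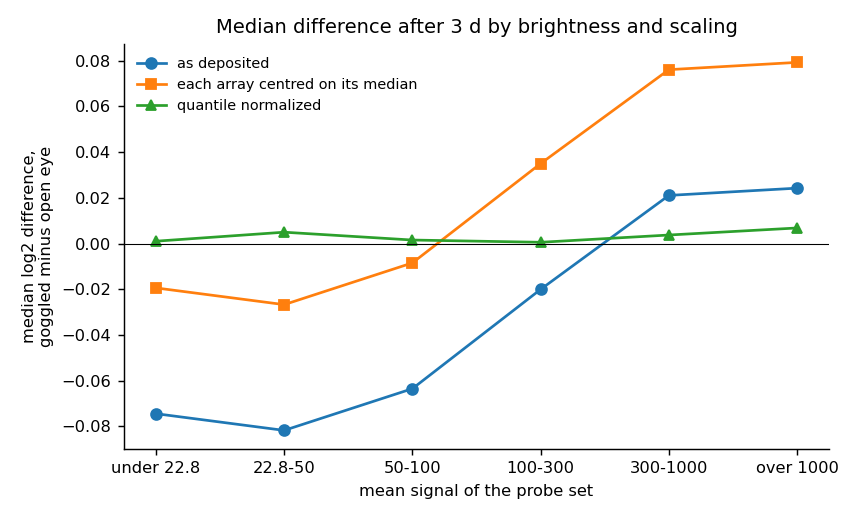
Median log2 difference (goggled minus open, 3 d) of all tested probe sets in 6 classes of mean signal, with the values as deposited, with each array centred on its median, and after quantile normalization. As deposited, the median runs from -0.08 in dim to 0.02 in bright probe sets, and quantile normalization brings all classes to within 0.0068 of 0.

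Of 47 genes that encode parts of the respiratory chain and ATP synthase, 40 were higher in value behind the goggle (median 0.09), against 48.8% of all genes. The counts were 42 after quantile normalization, where 6087 of all 11117 genes were higher, and 46 after median centring, where 7183 were. As deposited, 38.5% of probe sets with a mean signal over 1000 were lower, against 58.5% of all tested. At 6 h the median of the list was -0.04. Of the members 6 were higher in all 6 chicks, against 2.54% of all genes, and 7 had an unadjusted p under 0.05, against 2.99%. Chicks 3 and 6 had a list median below 0 (-0.07 and -0.05), and the other 4 were above. NDUFC2, a subunit of complex I, was 1845 ± 131 (SD, n = 6) behind the goggle and 1605 ± 64.5 in open eyes without overlap of the groups (0.20, limma adjusted p = 0.458). UQCR10, a subunit of complex III, gave 0.25 and was higher in 5 of 6. NDUFA11, of complex I, gave 0.23 with its bright probe set and -0.33 with a dim one.

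Genes of glycolysis and the low oxygen response had lower values in 28 of 36 cases (median -0.08), against 51.2% of all genes. After median centring 19 of 36 were lower, against 3934 of all 11117 genes. ENO1, enolase, reached 8935 ± 734 (SD, n = 6) behind the goggle and 10260 ± 965 in open eyes, and its second probe set was lower too (-0.20 and -0.13). GAPDH, a glycolytic enzyme, gave -0.21 and -0.14. Neither gene passed the test, with limma unadjusted p values of 0.0221 and 0.0192 for the brighter probe sets.

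Heat shock and unfolded protein genes had higher values in 25 of 36 cases (median 0.04), with a median above 0 in all 6 chicks and 3 members higher in all 6. Over all genes 48.8% were higher, and 2.54% were higher in all 6 chicks. Bright probe sets were lower less often, 41.6% of them at mean signals of 300 to 1000 against 58.5% of all tested. After quantile normalization 26 of the 36 genes were higher, against 6087 of all 11117 genes. HSPH1, a chaperone, gave 0.28 and -0.12 with its 2 probe sets, and PDIA4, a disulfide isomerase of the endoplasmic reticulum, 0.35 and 0.11. Cholesterol and fatty acid genes had higher values in 20 of 31 cases (median 0.06), and in 18 without chicks 2 and 3 (median 0.11). Among them 3 were higher and 2 lower in all 6 chicks, against 2.54% and 2.79% of all genes. FDFT1 and SQLE, successive enzymes of squalene formation and oxidation, gave 0.23 and 0.24 and were higher in 6 of 6 chicks. STARD4, a cholesterol carrier, gave 0.32 in 6 of 6 chicks with 1 probe set and -0.01 with the other. CYP51A1, a later enzyme of the pathway, went the other way at -0.47, at signals near the background.

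Photoreceptor and light-sensing genes tended to lower values without a call, where 51.2% of all genes were lower. Of 27 phototransduction genes 19 were lower (median -0.12), although chicks 1, 2 and 6 had list medians above 0. SLC24A1, the rod exchanger of sodium, calcium and potassium, was 605.0 ± 100 (SD, n = 6) behind the goggle and 772.3 ± 112 in open eyes, lower in 6 of 6 chicks (limma unadjusted p = 0.00516). OPN2SW, a short-wavelength cone opsin, gave -0.35, with 4 of 6 chicks lower. Chick 6 alone gave -1.19, with 2235 in its open eye against an open median of 974, and chicks 1 and 3 gave 0.35 and 0.02. RGS9, of the same list, went the other way at 0.22, higher in 6 of 6 chicks (limma unadjusted p = 0.0181). Its other probe sets gave -0.18, 0.13 and -0.22. Opsins that do not serve image formation were lower in 7 of 9 cases (median -0.11), among them OPN4, melanopsin, at -0.38 in 5 of 6 chicks. LRAT, which makes the retinyl esters of the pigment epithelium, gave -0.56 and was lower in 5 of 6 chicks (limma adjusted p = 0.347). Of 23 pigment epithelium and melanin genes 16 were lower (median -0.05). After median centring their median was 0.007, against 0.051 over all genes.

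Synapse and ganglion cell genes gave small differences. SNAP25, a protein of vesicle fusion, was 7149 ± 378 (SD, n = 6) behind the goggle and 8065 ± 624 in open eyes without overlap, and of its 6 probe sets 5 were lower. Of 17 genes of synaptic vesicle release 12 were lower (median -0.08), against 51.2% of all genes. Of 13 ganglion cell genes 9 were lower and 4 higher (median -0.06), and the list median was below 0 in 3 chicks and above 0 in 3. Among them EOMES, a transcription factor of ganglion cells, gave -0.32 and was lower in 6 of 6 chicks, at signals of 29.4 to 39.6 in open eyes. Of 17 Mueller glia genes 10 were lower (median -0.04). Among these ABCA8, a lipid transporter, was lower in 6 of 6 chicks without overlap (-0.57, SE 0.14, limma unadjusted p = 0.00139). Its signals were 37.2 to 60.7 in open eyes and 14.9 to 33.4 in goggled eyes, near the background.

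**Figure D5:**
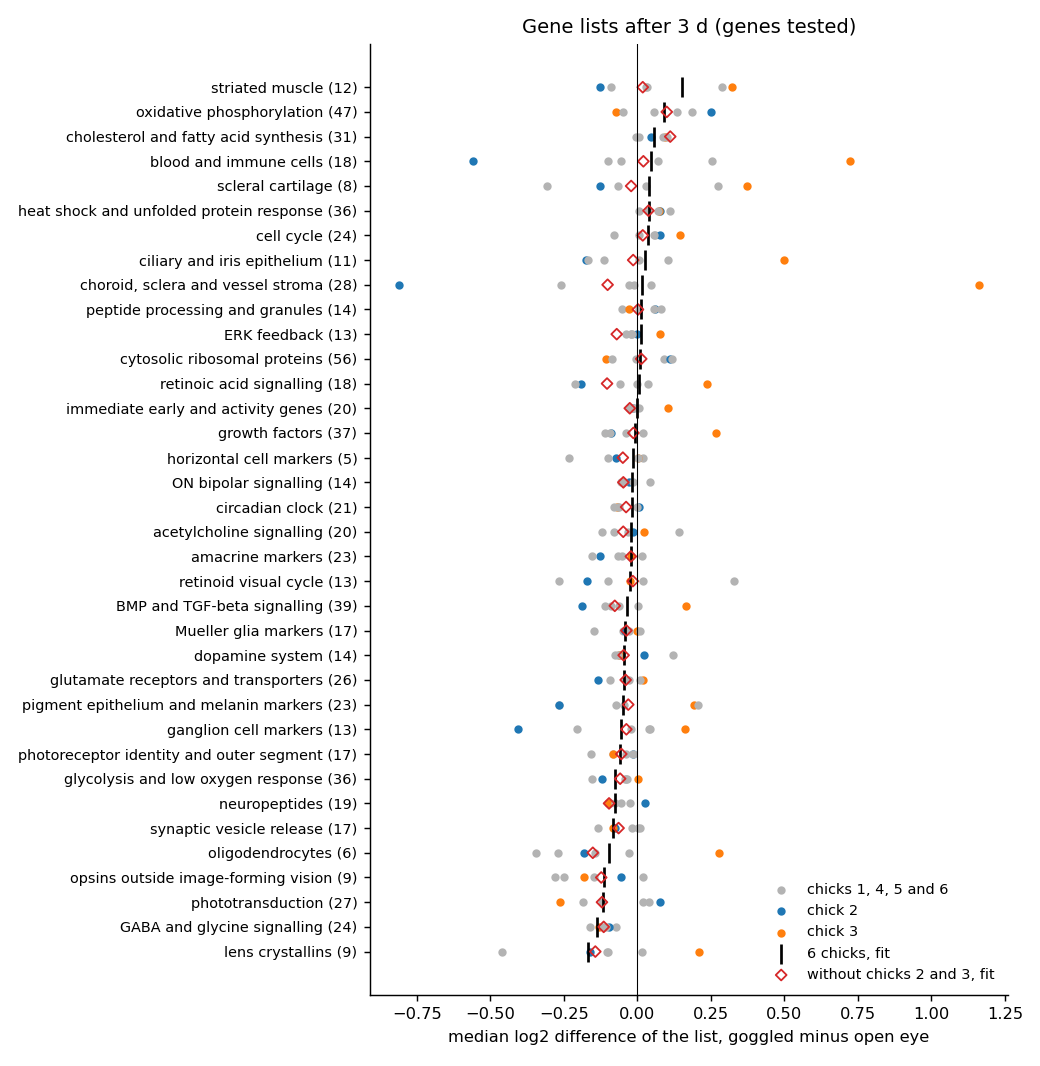
Median log2 difference (goggled minus open, 3 d) of 36 gene lists, with chick 2 in blue, chick 3 in orange, the other chicks in grey, the fit over 6 chicks as a bar and the fit without chicks 2 and 3 as a diamond. Chicks 2 and 3 lie at opposite ends for stroma (-0.81 and 1.16) and for blood and immune genes (-0.56 and 0.72), and close to the others for GABA and glycine.

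Leaving out chicks 2 and 3 moved some gene lists and left others near their value. For the 28 stromal genes the median SD of the difference over chicks was 0.72 with all 6 and 0.51 without chicks 2 and 3, against 0.23 and 0.21 over all genes. The median of the stromal list went from 0.02 to -0.10, that of retinoic acid genes from 0.01 to -0.10, that of the 12 muscle genes from 0.15 to 0.02, and that of GABA and glycine genes from -0.14 to -0.12. Of the chicks kept, chick 1 had a stromal median of -0.26, with stromal means of 6.64 in its open and 6.01 in its goggled eye. Chicks 4, 5 and 6 had stromal medians of -0.01, 0.05 and -0.03. Over all 11117 genes, 203 (1.83%) moved by more than 0.25 and 5 by more than 0.5, and of the stromal genes 3 of 28 by more than 0.25. Across all tested probe sets the differences with and without the 2 chicks, which share 4 chicks, correlated at 0.866.

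Among the genes that moved most were dim ones and ones high in a single eye. FABP4, a fatty acid carrier of fat cells and vessels, went from 0.36 to -0.26, through a signal of 194.2 in goggled eye 3. PTGDS, prostaglandin D synthase, went from -0.53 to -1.23, with signals from 3.2 to 410.8 among goggled eyes. Of the chicks kept, chick 1 gave -3.87, with a PTGDS signal of 382.8 in its open eye. Chicks 4, 5 and 6 gave -0.54, -0.15 and -0.37. SPINK5, a protease inhibitor of surface epithelia, went from -1.60 to -2.34, and its signal was 6316 in open eye 1 and at most 19.1 in the other 11 eyes. HBE, a globin, went from 0.18 to 0.63, and FAM168A, whose function is less known, from 0.17 to 0.70. This FAM168A probe set was dim, with mean signals of 14.9 in open and 18.9 in goggled eyes. The other FAM168A probe sets went from 0.0002 to -0.17 and from -0.48 to -0.26. ALDH1A2, the enzyme that makes retinoic acid and in the chick choroid is known to respond to goggles, gave 0.14 with all 6 chicks (SE 0.54) and -0.15 without chicks 2 and 3. Its signal was 571.3 in goggled eye 3.

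Across all tested probe sets the differences at 3 d and at 6 h, in 6 other chicks, correlated at only 0.160. Both called genes had values in the same direction at both times, as had BMP2, CCN2, BDNF, GCG, NTS and PHLDA2 but not SPARCL1. Against their signs at 3 d, YBX1 gave 0.28 at 6 h, GABRD 0.19, GLRA1 0.04 and ID4 -0.01. How many of all probe sets had 1 direction in all 6 chicks at 6 h is not given here. VIP gave -0.63 (SE 0.09, limma adjusted p = 0.235) and UTS2B -0.52 (0.655), each in 6 of 6 chicks, and no probe set passed at 6 h. BMP2 gave -1.22 at 6 h and CCN2 -0.96, each lower in 6 of 6. BDNF gave -0.34, GCG -0.32 and NTS 0.30, each in 1 direction in 6 of 6 chicks. PHLDA2 gave 0.51, higher in 5 of 6. The difference between 3 d and 6 h was -0.32 (SE 0.13) for VIP, with a limma unadjusted p of 0.0262, and -0.06 (SE 0.35) for BMP2, and no probe set passed for it (smallest limma adjusted p = 0.681, with 1136, or 4.22%, at an unadjusted p under 0.05). SPARCL1 had a difference of -0.06 at 6 h and of 0.44 at 3 d (limma unadjusted p of the difference 0.00141, not past the test). EGR1 went from -0.64 at 6 h to -0.22 at 3 d, with a limma unadjusted p of 0.173 for the difference.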

How the data were processed

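Total RNA (3 µg per eye) was hybridised to Affymetrix chicken arrays, 1 per eye, per the labels' protocols. The deposited values are linear signal intensities, 1 per probe set and array, scaled to a 2% trimmed mean of 150.03. The submitters' processing notes name GCOS and RMA without roles (GCOS version 1.4 per the labels), and no source used here states which of them wrote these values. Here 96 control probe sets were removed, 16 was added, log2 was taken, and probe sets with a mean under the 30th percentile (signal 13.4) were left out. Fold differences are therefore on the log2(signal + 16) scale and understate dim genes.

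Symbols came from the platform annotation, updated by gene ID from RefSeq GRCg7b for 26863 probe sets. For gene lists the brightest probe set stood for each of 11117 genes.

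limma 3.58.1 (R 4.3.3) was fitted to 24 arrays with group and chick as fixed terms (10 residual degrees of freedom), with Benjamini-Hochberg adjustment over 26907 probe sets. Every adjusted p rests on these, apart from fits with another filter, such as that at the 50th percentile (19220 probe sets). Figures used matplotlib 3.10.9. Which arrays pair is not labelled. Arrays were compared after each probe set's mean over the 6 open or the 6 goggled eyes of that time was subtracted. On these deviations same-numbered arrays correlated at 0.102 to 0.445 at 3 d (mean 0.275, others -0.055). The subtraction makes the other pairs negative on average when the same-numbered pairs are positive, so -0.055 is no separate evidence for the pairing. Goggled eye 3 correlated better with open eye 2 (0.291) than with open eye 3 (0.102), so values within chicks 2 and 3 rest on an unsure pairing. Goggled eye 3 and open eye 2 are both rich in stromal RNA, and its part in their correlation was not tested. The members, the 36 lists and the naming rule were chosen with earlier results of these data known. Named were every call, the 10 largest differences each way with an unadjusted p under 0.01 and 1 direction in 6 chicks, the 5 each way without chicks 2 and 3, up to 4 per list and direction, the 5 each way that moved most, the 5 with the smallest p between times, and 16 genes known from myopia work. From these the text describes a part. On simulated data with 26907 probe sets a log2 change of 0.25 was found in 8% of cases, one of 0.5 in 44%, of 0.75 in 78%, of 1 in 90% and of 1.5 in 100%, and 14 of 26657 unchanged probe sets were called. The simulated data held 50 changed probe sets of each size, with independent noise, so many more were called than the 2 of the real data. The unadjusted p needed for a call was thus less strict there, and these shares overstate what the real comparison could find. The alternatives were other blocks, offsets, filters, scalings and variances, array weights, a stromal covariate and chicks left out. The number of arrays limits the precision.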

Additional observations from a re-analysis of the deposited data

Results flagged for a closer look

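Of 90 groups of 6 eyes examined, 6 held an eye far from the rest, and chance gives about 1 in 20 groups. Goggled eye 3 at 3 d was far above the other goggled eyes in ALDH1A2 (571.3), in TGFB2 (204.0) and in the stromal mean (7.93), and far below them in SPARCL1 (492.3). Goggled eye 4, which had the highest actin 3'/5' ratio of the eyes at 3 d (5.05), was far above the others in PENK (4495). Goggled eye 6 was far below the others in UTS2B (51.9), so that eye lay further from the open eyes and not nearer to them.

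LRP3, a receptor of the low-density lipoprotein family, was lower in all 6 chicks at 3 d (-0.40) and higher in all 6 at 6 h (0.48). CENPU, a centromere protein, was likewise lower at 3 d (-0.31) and higher at 6 h (0.29). PTGR2, a prostaglandin reductase, was higher at 3 d (0.30) and lower at 6 h (-0.20). The limma adjusted p of the difference between the times was 0.681, 0.836 and 0.885. All 3 were named because their p for this difference was among the 5 smallest. LRP3 and CENPU were dim, with mean signals of 24.6 and 23.6 in open eyes, and the second probe sets of CENPU and PTGR2 gave 0.24 and -0.10 at 3 d, against the sign of the first.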

How the results depend on the processing

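Over 24 settings VIP was lower in each (-0.996 to -0.83) and UTS2B too (-0.93 to -0.54). The count of 2 calls became 4 with a random block or a filter at the 50th percentile and 1 on the 12 arrays alone, after quantile normalization or after median centring, and 3 at an adjusted p under 0.10. It was 0 without chicks 2 and 3, also with median centring or quantile normalization, and 1 without these chicks and without the replicate block. Leaving out 1 chick gave 1 to 4 calls, with 4 without chick 1 and 1 without chick 4, 5 or 6. Without the replicate block the same 2 genes were called (VIP 0.0121, UTS2B 0.00266), and with only goggled eye 3 and open eye 2 removed from it VIP gave -0.95 (0.0558) and BMP2 -1.58 (limma adjusted p = 0.0479). SPIRE1 passed with the 50th percentile filter (0.0433) and with trended robust variances (0.047). Settings with 2 changes at once were chosen after seeing the data. Several of these settings also hold fewer arrays or probe sets, and the cause of the moves was not tested.

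Differences of single probe sets of uncalled genes changed sign as follows. Those of FAM168A, PDE4DIP, PLAU, SH3PXD2A, UQCRB and WNK2 were not the brightest of their gene and were named because they moved most. With and without chicks 2 and 3, a brighter probe set gave -0.15 and -0.08 for WNK2, and -0.09 and -0.22 for PLAU. For UQCRB it gave 0.06 and 0.11, and for FAM168A, where the sign did change, 0.0002 and -0.17. Without chicks 2 and 3, with or without the replicate block, ALDH1A2 gave -0.15, FABP4 -0.26, NPY -0.012, SH3PXD2A 0.016 and UQCRB 0.26. With median centring as well they were -0.084 (ALDH1A2), -0.19 (FABP4), 0.083 (SH3PXD2A) and 0.32 (UQCRB), and with quantile normalization -0.036, -0.17, 0.10 and 0.32, and -0.0094 for NPY. With array weights the values were -0.086 for ALDH1A2, -0.00055 for NPY and -0.0073 for TGFB2. Without only the 2 stroma-rich eyes ALDH1A2 gave -0.064, FABP4 -0.22, TGFB2 -0.025 and UQCRB 0.072. Leaving out 1 chick at a time gave -0.55 to 0.60 for ALDH1A2, -0.11 to 0.53 for FABP4, -0.13 to 0.45 for FAM168A, -0.067 to 0.12 for NPY, -0.52 to 0.047 for PDE4DIP, -0.15 to 0.34 for PLAU, -1.37 to 0.14 for PTGDS, -0.087 to 0.11 for TGFB2, -0.32 to 0.29 for UQCRB and -0.55 to 0.019 for WNK2. Of 360 list medians under the alternatives, 341 moved by less than the spread.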

Other observations

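Some probe sets were high in a single eye, by at least 1 on the log2 scale over the next highest of the 12 eyes at 3 d. This was so for 43 probe sets in goggled eye 3, 13 in open eye 6, 9 in open eye 1, 1 in open eye 4 and none in the other 8 eyes. In goggled eye 3 they included 3 genes of striated muscle, namely TNNT3 (212.9, at most 21.0 elsewhere), MYL10 (113.3, at most 22.6) and ACTA1 (170, at most 41.1), and APOA1, an apolipoprotein (391.6, at most 108.6). In open eye 1 SPINK5 (6316) was joined by OVSTL, which resembles ovostatin (497.1, at most 27.3 elsewhere), and EXFABP, an extracellular fatty acid binding protein (655.6, at most 208.9). Open eye 6 was apart in GLRX3, a glutaredoxin (1202, at most 223.6), and SF3B3, a splicing factor (210, at most 78). These genes were chosen after their values were seen.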
